A study of Arabidopsis thaliana with 12 samples.

Results

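The cold-response pathway of Arabidopsis thaliana was examined through 10 genes in seedlings that received no cold treatment named by the labels after germination. The genes were the transcription factors CBF1 (AT4G25490), CBF2 (AT4G25470) and CBF3 (AT4G25480) and the cold-regulated genes COR15A (AT2G42540), COR15B (AT2G42530), RD29A (AT5G52310), RD29B (AT5G52300), KIN1 (AT5G15960), COR47 (AT1G20440) and ERD10 (AT1G20450). They were chosen by name, and each was taken through the probe set whose deposited locus is that gene. This gave 10 probe sets for 10 genes, 0 of them assigned to several loci, of 22746 probe sets tested. None of the 10 passed an adjusted p of 0.05 in any of the 8 planned comparisons of time of day, line and age. The widest spread lay in the neighbouring genes COR15A and COR15B, which in wild type were far higher at 7 days than at 5 and 6 days.

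The study hybridised RNA of whole seedlings to Affymetrix arrays, 12 in all, with 3 arrays in each of 4 groups. The wild type Columbia (Col) was compared with CCA1-34, a single arrhythmic line that overexpresses the clock factor CCA1, early and late in the day, and the series states that Col grows at the early and not at the late time while CCA1-34 grows at both. Early samples were taken 280 minutes and late samples 1240 minutes after dawn, in both cases 120 minutes into darkness. All seedlings shared 4 days of stratification at 4 °C, medium with 3% sucrose, 4 short days at 20 °C and then light pulses of 160 minutes separated by dark periods of 320 minutes. The 3 arrays of a group were collected on successive days, from seedlings of 5, 6 and 7 days for replicates 1, 2 and 3, so age, replicate number and time spent in the light cycles cannot be told apart. Each sample is a pool of seedlings, and the labels do not say whether days or groups came from separate sowings, so a p-value here speaks only to the scatter among these arrays.

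CBF1, CBF2 and CBF3, also called DREB1B, DREB1C and DREB1A, are AP2-type transcription factors that are induced rapidly by cold and bind the CRT/DRE element in the promoters of cold-regulated (COR) genes, whose products protect cells during freezing and water loss. The clock gates the pathway, and CCA1 and LHY are known to bind CBF promoters in the daytime. Abscisic acid reaches several of the same targets by a separate route through the ABRE element, which is why RD29A answers to cold and to drought while RD29B answers mainly to abscisic acid.

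Expression is given as log2 values, and array medians lay between 4.01 and 4.12. Arrays of the same group correlated at 0.962 to 0.992. The lowest values involved the Col arrays at 7 days. Col early at 7 days correlated at 0.9617 with 5 days and 0.9675 with 6 days. Col late at 7 days correlated at 0.9693 with 6 days. Its correlation with 5 days, at 0.9816, was above those among the CCA1-34 early arrays, at 0.9776 to 0.9805. The overexpressed gene separated the lines, with CCA1 at 2.47 to 6.37 on the Col arrays and 8.46 to 10.18 on the CCA1-34 arrays. Several arrays differed from their group in the means of control gene lists. The dark and sugar starvation genes differed from the other arrays of the group by -1.44 on CCA1-34 early at 6 days, by -1.13 on Col early at 7 days and on Col late at 5 days, and by 1.28 on Col late at 7 days. The seed markers differed by 1.35 on Col early and by 1.49 on Col late at 6 days, and by -1.17 on Col late at 7 days. The 2 early arrays low in starvation genes were left out together as an alternative, and the other arrays only singly. The 6 measured photosynthetic markers were above the array median on every array. Of the 12 root markers, COBL9, EXPA18, SHR, SCR, CASP1, CASP2 and PIN2 were above it on 12 arrays and EXPA7 on 11. LRX1 was above it on 4 arrays, IRT1 on 2, and RHD6 and NRT2.1 on 0.

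The CBF genes were at low signal throughout, and the largest difference between times lay in wild type. Each of CBF1, CBF2 and CBF3 was below the array median on 12 of 12 arrays, at a level that the deposited values do not show to be above background. In Col early, CBF1 measured 2.39, 2.83 and 2.27 at 5, 6 and 7 days, against 2.14, 2.15 and 2.06 in Col late. CBF3 measured 2.51, 2.37 and 2.26 early against 2.01, 1.98 and 2.03 late. For both genes all 3 early Col arrays were above all 3 late ones. CBF2 measured 2.84, 3.63 and 1.93 in Col early and 2.33, 2.30 and 2.22 in Col late, so that its early arrays included both the highest and the lowest value among the 12 arrays.

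In CCA1-34 the early and late arrays of all 3 factors overlapped. CBF1 measured 2.58, 2.49 and 2.16 early and 2.31, 2.61 and 2.40 late. CBF2 measured 2.51, 2.28 and 2.30 early and 2.12, 2.42 and 2.32 late, and CBF3 1.99, 2.17 and 2.09 early and 2.11, 2.30 and 2.04 late. The order of group means placed Col early first and Col late last for CBF1 and CBF3, with means of 2.50 ± 0.29 and 2.11 ± 0.05 for CBF1 and 2.38 ± 0.13 and 2.01 ± 0.03 for CBF3 (SD, n = 3). The CCA1-34 means lay between them, at 2.41 ± 0.22 early and 2.44 ± 0.16 late for CBF1 and 2.08 ± 0.09 early and 2.15 ± 0.13 late for CBF3, and differed from each other by less than their SD. For CBF2 the order was Col early at 2.80 ± 0.85, CCA1-34 early at 2.36 ± 0.12, Col late at 2.29 ± 0.06 and CCA1-34 late at 2.29 ± 0.15, where no neighbours differed beyond their spread.

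**Figure D1:**
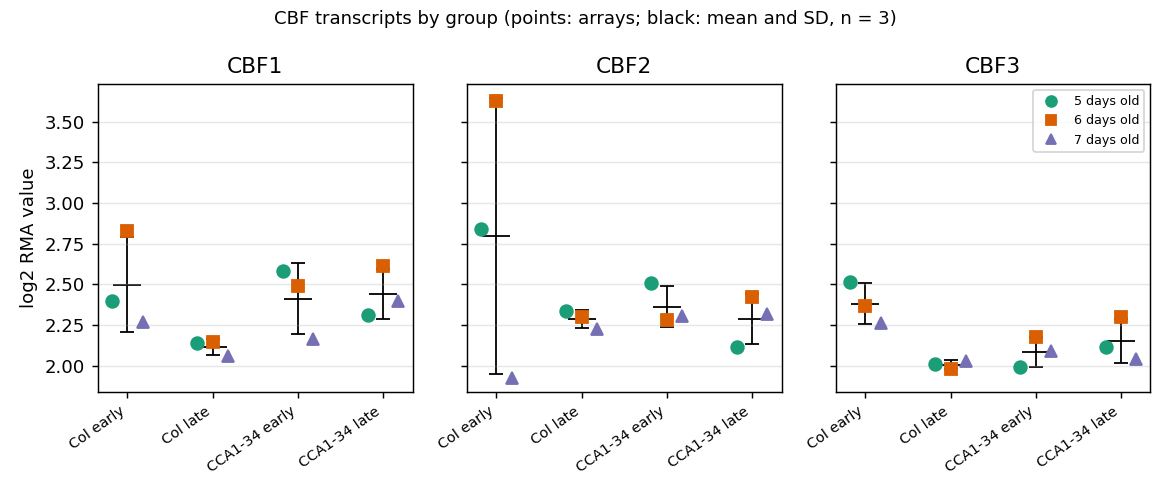
Log2 values of CBF1, CBF2 and CBF3 on each of the 12 arrays, grouped by line and time, with a point per array marked by seedling age and black bars for the group mean and SD (n = 3). CBF1 and CBF3 have all 3 Col early arrays above all 3 Col late arrays, while the CCA1-34 times overlap.

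In Col, the early minus late difference of log2 values was 0.37 for CBF3 (SE 0.10, n = 3 and 3), 0.38 for CBF1 (SE 0.16) and 0.51 for CBF2 (SE 0.32). None passed: the adjusted p from limma was 0.769 for CBF3, 0.900 for CBF1 and 0.906 for CBF2, and 0.0044% of all probe sets passed in this comparison. The unadjusted p in limma was 0.0041 for CBF3 and 0.0359 for CBF1, and 5.41% of all probe sets were below 0.05. The CBF1 and CBF2 differences depended on single arrays. Without Col early at 6 days they were 0.22 for CBF1 and 0.10 for CBF2, and without Col early at 7 days CBF2 was 0.95. For CBF3 the difference ranged from 0.31 to 0.44 with 1 array left out.

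Whether the difference between times depends on the line was tested as an interaction. It was 0.44 for CBF3 (SE 0.15) and 0.41 for CBF1 (SE 0.23), with the Col difference the larger in each case. Without Col early at 6 days the CBF1 interaction was 0.25. Both had an adjusted p from limma that rounds to 1, and 0% of all probe sets passed. CBF3 had an unadjusted p of 0.0117 in limma, and 2.04% of all probe sets were below 0.05 there.

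Set against Col at the same time, the overexpressor had lower CBF3 values early and higher CBF1 and CBF3 values late. The early difference for CBF3 was -0.30 (SE 0.10), and it was below 0 at each of the 3 ages. Its unadjusted p in limma was 0.0155 and its adjusted p rounded to 1.00, with 3.57% of all probe sets below an unadjusted 0.05 and 0.0044% passing after adjustment. In the late comparison the difference was 0.32 for CBF1 and 0.15 for CBF3, with all 3 CCA1-34 arrays above all 3 Col arrays for both. Without CCA1-34 late at 6 days the CBF3 difference was 0.07. Neither passed after adjustment, and 0.00879% of all probe sets did. These late differences use the same Col late arrays as the comparison of times in Col, so the results are not independent of each other.

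Counting all 10 genes, 4 had every Col early array above every Col late array, namely CBF1, CBF3, RD29A and ERD10, while 5.14% of all probe sets did so. In the late comparison of lines, CBF1, CBF3 and ERD10 had every CCA1-34 array above every Col array, where 5.45% of all probe sets did. For ERD10 that difference was 0.29, and 0.19 without Col late at 7 days. In the early comparison CBF3 had every CCA1-34 array below every Col array, as 4.49% of all probe sets did. Between times in CCA1-34, 0 of the 10 genes had arrays that did not overlap, and 6.96% of all probe sets had.

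COR15A and COR15B encode small proteins of the chloroplast stroma that stabilise membranes during freezing, and both are classic CBF targets. They were the most variable of the 10 genes, and in Col the variation followed age. COR15A measured 3.85, 3.48 and 8.99 at 5, 6 and 7 days in Col early and 4.60, 4.85 and 8.47 in Col late. COR15B measured 3.94, 3.07 and 7.89 in Col early and 4.14, 4.38 and 7.13 in Col late. At both times of day the Col array at 7 days was the high one, and the arrays at 5 and 6 days were low.

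In log2 units, COR15A at 7 days exceeded the mean of the 2 younger ages by 5.33 in Col early and by 3.74 in Col late. The same quantity for COR15B was 4.39 in Col early and 2.88 in Col late. In Col early both genes were below the array median at 5 and 6 days, in a range not shown to be above background, so no fold is given and the log2 differences may understate the change. Each of these 4 differences rests on 1 array at 7 days. On the starvation list those arrays averaged 5.26 in Col early, below the others of the group, and 7.26 in Col late, the highest of the 12 arrays. The part of these differences in the COR15 values was not tested.

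The overexpressor did not show the low values at 5 and 6 days. COR15A measured 5.02, 7.57 and 6.49 in CCA1-34 early and 5.85, 7.38 and 7.83 in CCA1-34 late. COR15B measured 5.68, 6.62 and 5.99 early and 6.42, 6.70 and 6.42 late. At 5 and at 6 days both genes were higher in CCA1-34 than in Col at both times, and at 7 days both were lower in CCA1-34 than in Col at both times. Against the mean of 5 and 6 days, COR15B at 7 days differed by -0.17 early and -0.14 late in CCA1-34, and COR15A by 0.19 early and 1.21 late.

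**Figure D2:**
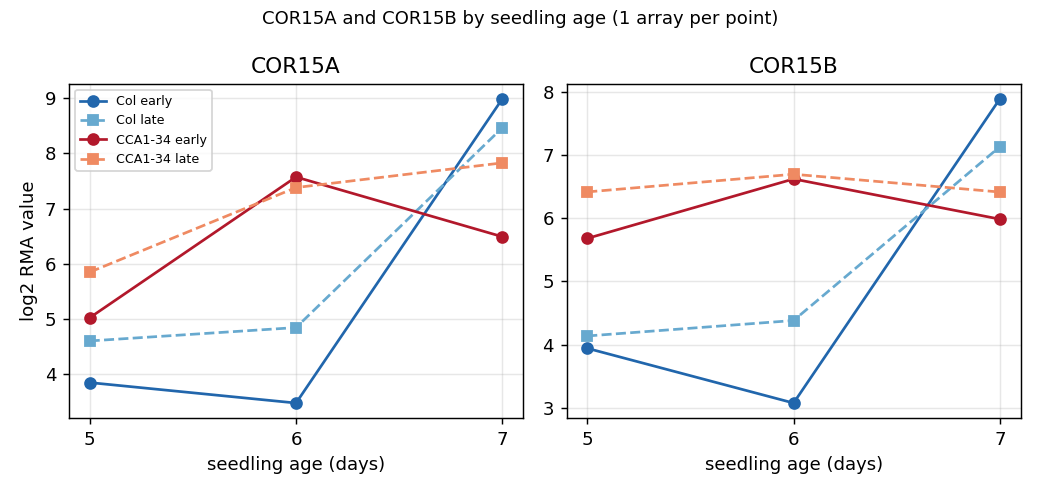
Log2 values of COR15A and COR15B against seedling age in days, with a point per array and a line per group. The Col groups are near the array median at 5 and 6 days and high at 7 days, and the CCA1-34 groups vary less.

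Averaged over both times, CCA1-34 exceeded Col by 0.99 for COR15A (SE 1.04, n = 6 and 6) and by 1.21 for COR15B (SE 0.78). Neither passed in limma: the adjusted p was 0.9985 for COR15A, the unadjusted p for COR15B was 0.151, and 0.022% of all probe sets passed. Without Col early at 6 days the differences were 0.50 for COR15A and 0.74 for COR15B. Without Col early at 7 days they were 1.87 and 1.94. For COR15A the difference was 0.59 without Col early at 5 days and 1.61 without Col late at 7 days.

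A slope over age was fitted across all 4 groups. It was 1.56 log2 units per day for COR15A (SE 0.43) and 0.91 for COR15B (SE 0.41). The adjusted p in limma was 0.116 for COR15A and 0.305 for COR15B, so neither passed, and 0.787% of all probe sets did. Fits with a separate slope in each line were added after the values had been seen and describe the plotted pattern. They gave COR15A 2.25 per day in Col (SE 0.55, adjusted p 0.329 in limma) and 0.86 in CCA1-34, and COR15B 1.74 in Col and 0.08 in CCA1-34. The slope in CCA1-34 minus that in Col was -1.39 for COR15A, with an unadjusted p of 0.112, and -1.66 for COR15B (SE 0.65), with an unadjusted p of 0.0313 in limma, where 2.32% of all probe sets were below 0.05. None of these slopes or slope differences passed after adjustment, against 0.0176% of all probe sets for the slope in Col, 0% for that in CCA1-34 and 0% for the difference. Without Col early at 7 days the COR15B slope over all groups was 0.44, the slopes in Col were 1.47 for COR15A and 1.03 for COR15B, and the slope differences were -0.61 and -0.95. In CCA1-34 the COR15A slope was 1.302 without the early array at 7 days, and that of COR15B -0.13 without the early array at 5 days.

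RD29A and RD29B are a further pair of neighbouring genes, encoding hydrophilic proteins of unknown biochemical activity that serve as standard reporters of cold, drought and abscisic acid responses. Both were above the array median on every array. RD29A measured 8.77, 8.51 and 8.75 at 5, 6 and 7 days in Col early and 8.43, 8.13 and 6.95 in Col late. In CCA1-34 it measured 10.04, 8.54 and 7.94 early and 8.74, 8.15 and 7.91 late. The early array exceeded the late one of the same line and age in 6 of 6 cases, by as little as 0.03 and as much as 1.80. The share of all probe sets that do so is not given, so this count describes the RD29A values only.

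Over both lines the early minus late difference for RD29A was 0.71 (SE 0.36, n = 6 and 6). It did not pass in limma, with an unadjusted p of 0.0756, and 0% of all probe sets passed. With sampling day added as a replicate block the unadjusted p was 0.0187 and the adjusted p 0.653. Without CCA1-34 early at 5 days, which held the highest RD29A value, the difference was 0.41. In Col alone the difference was 0.84 (SE 0.51, adjusted p 0.906 in limma), and it was 0.40 without Col late at 7 days, which held the lowest RD29A value of the 12.

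RD29B measured 8.37, 8.86 and 7.90 in Col early and 9.06, 8.84 and 6.86 in Col late. In CCA1-34 it measured 9.23, 9.05 and 8.10 early and 8.92, 8.15 and 8.16 late. Times and lines overlapped, and in 3 of the 4 groups the value at 7 days was the lowest.

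COR47 and ERD10 are acidic dehydrins, proteins that bind membranes and water when cells dry or freeze, and KIN1 is a small hydrophilic cold-induced protein. ERD10 measured 7.95, 7.84 and 7.78 in Col early and 7.64, 7.59 and 7.29 in Col late. In CCA1-34 it measured 8.88, 8.36 and 7.57 early and 7.94, 7.72 and 7.74 late. All 3 early Col arrays were above all 3 late ones, and in CCA1-34 the early arrays at 5 and 6 days were the high ones.

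The ERD10 difference between early and late was 0.35 in Col (SE 0.26), 0.47 in CCA1-34 (SE 0.26) and 0.41 over both lines (SE 0.18). Over both lines its unadjusted p was 0.0483 and its adjusted p 0.865 in limma, and 5.16% of all probe sets had an unadjusted p below 0.05. CCA1-34 minus Col over both times was 0.35 (SE 0.18), with an unadjusted p of 0.0822 and an adjusted p of 0.995 in limma. Without CCA1-34 early at 5 days, the highest ERD10 array, the line difference was 0.20 and the time difference over both lines 0.26. With all arrays and the replicate block, the time difference over both lines had an unadjusted p of 0.0205 and an adjusted p of 0.659 in limma. The line difference then had 0.0387 and 0.709, so neither passed.

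COR47 measured 9.57, 9.34 and 8.02 in Col early and 9.20, 9.19 and 9.32 in Col late. In CCA1-34 it measured 9.87, 9.69 and 8.81 early and 9.61, 9.05 and 9.52 late. In both lines the early value at 7 days was the lowest of its group, while in the late groups it was not. CCA1-34 minus Col over both times was 0.32, and it was 0.08 without Col early at 7 days.

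KIN1 measured 10.31, 9.94 and 10.72 in Col early and 10.17, 9.98 and 10.22 in Col late. In CCA1-34 it measured 11.41, 10.44 and 9.57 early and 10.39, 10.04 and 9.23 late. The values in CCA1-34 were ordered downward by age at both times, and those in Col were not. Its neighbour KIN2 is a close paralogue with no probe set of its own here, and the KIN1 probe set is of a design that can also hybridise related transcripts. The share of KIN2 in this signal was not tested.

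**Figure D3:**
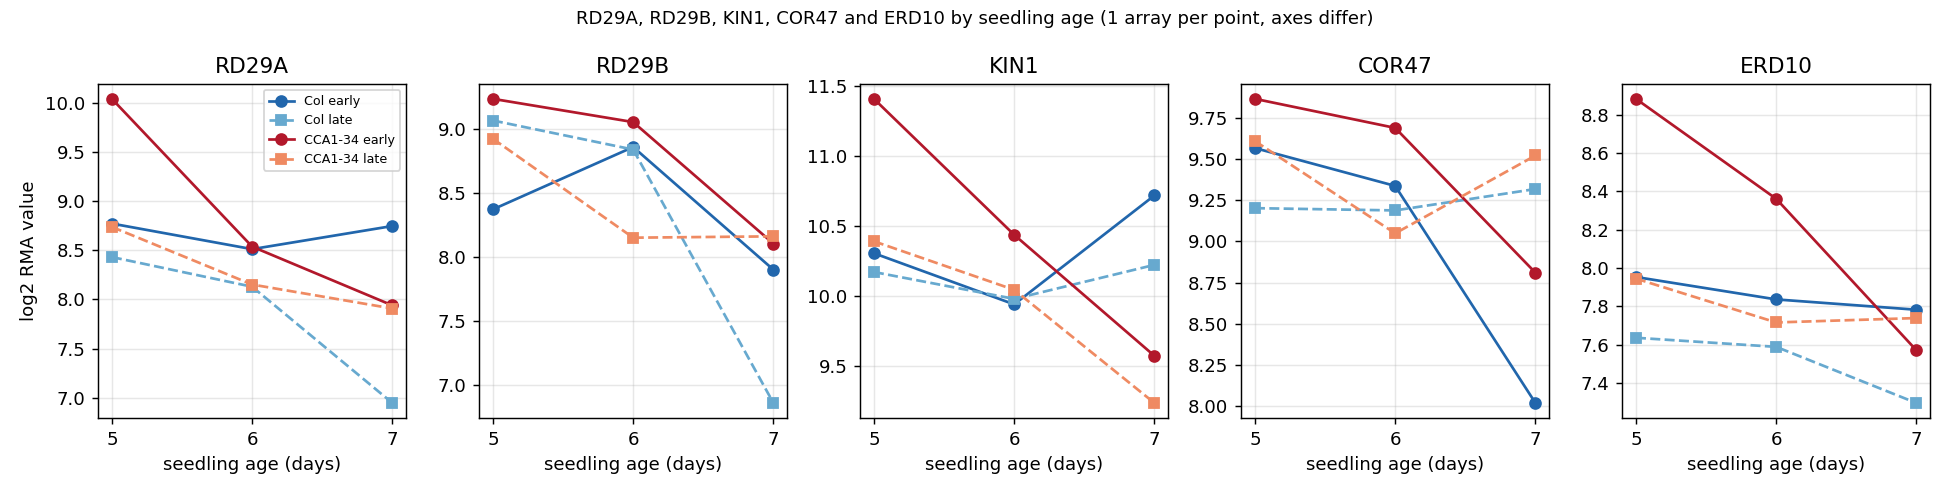
Log2 values of RD29A, RD29B, KIN1, COR47 and ERD10 against seedling age in days, with a point per array and a line per group. RD29B is lowest at 7 days in 3 of 4 groups, and KIN1 is ordered downward by age in both CCA1-34 groups and in neither Col group.

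Early minus late for KIN1 in CCA1-34 was 0.58 (SE 0.42), with 0% of all probe sets passing in that comparison. It was 0.11 without CCA1-34 early at 5 days, and the ERD10 difference in the same comparison was then 0.17. The slopes added by line gave KIN1 -0.75 per day in CCA1-34 (SE 0.12, unadjusted p 0.000204 and adjusted p 0.194 in limma) and 0.12 in Col. In CCA1-34, 9.99% of all probe sets had an unadjusted p below 0.05. The slope in CCA1-34 minus that in Col was -0.87 (SE 0.17), with an unadjusted p of 0.000827 and an adjusted p of 0.9997 in limma. With 1 array left out, the KIN1 slope ranged from -0.90 to -0.64 in CCA1-34 and from -0.05 to 0.21 in Col. The KIN1 difference then ranged from -1.01 to -0.70. RD29A gave -0.73 in CCA1-34 (SE 0.20, adjusted p 0.283) and -0.38 in Col, with a difference of -0.36. Single arrays moved all of these RD29A values. Without Col late at 7 days the slope in Col was -0.07 and the difference -0.66. Leaving out Col early at 7 days gave -0.65 and -0.09. Without CCA1-34 early at 5 days the slope in CCA1-34 was -0.45 and the difference -0.07.

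Across all 4 groups, 2 of the 10 genes had a slope over age above 0 (COR15A and COR15B) and 8 had one below 0, while 51.3% of all probe sets were above 0. RD29A had -0.56 per day (SE 0.14, adjusted p 0.101 in limma), RD29B -0.57 (SE 0.16, adjusted p 0.120) and ERD10 -0.25 (SE 0.084, adjusted p 0.169). COR47 had -0.32 (SE 0.14, adjusted p 0.284) and KIN1 -0.32 (SE 0.16, adjusted p 0.369). Single arrays moved these values, to -0.18 for COR47 without Col early at 7 days, to -0.17 for KIN1 without CCA1-34 early at 5 days and to -0.15 for ERD10 without CCA1-34 early at 7 days. The CBF slopes were -0.07, -0.13 and -0.03 for CBF1, CBF2 and CBF3. Without adjustment 1 gene of the 10 was higher with age at p below 0.05, where 9.21% of all probe sets were, and 4 were lower, where 7.24% were.

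The call for RD29A turned on the arrays used. With array weights its adjusted p in limma was 0.0228 and that of RD29B 0.0426. Over all 22746 probe sets 1151 passed with these weights, against 179 in the main fit. Without the 2 early arrays low in starvation genes RD29A had a slope of -0.70 and an adjusted p of 0.0447 in limma. No count over all probe sets is given for that fit. The mean of the 12 root markers was 4.80 to 5.16 at 5 days, 4.68 to 5.50 at 6 days and 4.58 to 4.69 at 7 days, and with age 6 of 12 were lower and 1 higher at an unadjusted p below 0.05, against 7.24% and 9.21% of all probe sets, with 0 passing after adjustment. Their part in the slopes was not tested, and in whole seedlings fewer cells of a type and less RNA per cell cannot be told apart. The mean of the 6 photosynthetic markers was 11.58 to 12.04 over all arrays, and the 9 seed markers averaged 4.62 to 5.42 at 5 days, 5.91 to 6.62 at 6 days and 4.85 to 6.53 at 7 days.

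**Figure D4:**
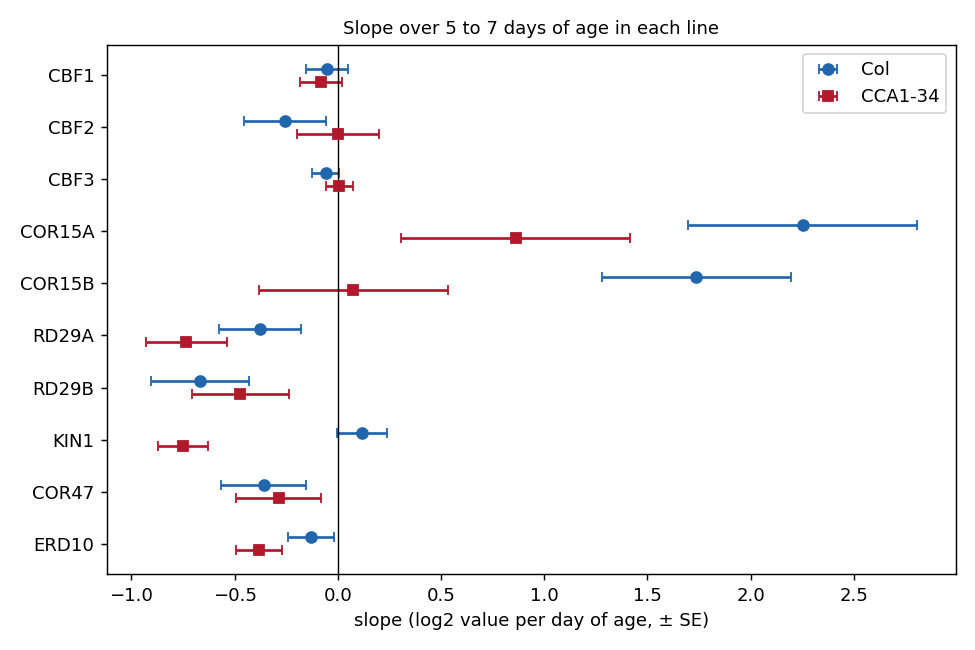
Slope of the log2 value per day of age for each of the 10 genes, fitted separately in Col (blue circles) and CCA1-34 (red squares), with bars for the standard error. COR15A lies at 2.25 in Col and 0.86 in CCA1-34, COR15B at 1.74 and 0.08, and KIN1 at 0.12 and -0.75.

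Over the 10 genes together, the median difference was 0.27 for Col early minus late, 0.07 for CCA1-34 early minus late and 0.29 for CCA1-34 minus Col over both times. The medians of all probe sets were near 0, for example 0.01 for the comparison of times in Col. In the comparison of lines over both times 7 of the 10 genes were above 0, and 47.2% of all probe sets were. The seed and embryo markers had a median of 0.67 in the same comparison, with 7 of 9 above 0 and 0 passing after adjustment. At an unadjusted p below 0.05 in limma 2 were higher, against 2.99% of all probe sets. In the other direction 1 was lower, for which no share of all probe sets is given. The genes of this list given next were named after their values were seen. EM1, a late embryogenesis gene that answers to abscisic acid, had a line difference of 1.78 (SE 0.26, adjusted p 0.0751 in limma). EM6 had one of 1.00. The seed storage genes went both ways, with SESA1 at -0.90 and SESA3 at -0.73, and CRA1 at 0.57 and CRC at 0.67. The part of seed transcripts in the differences of the 10 genes was not tested.

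The gene order of the RefSeq annotation TAIR10.1 places CBF1, CBF3 and CBF2 side by side, and likewise COR15A with COR15B, RD29A with RD29B and COR47 with ERD10, with 0 protein-coding genes between neighbours. Over the 12 arrays COR15A and COR15B had a Pearson r of 0.94 and a Spearman rho of 0.94. The r was 0.99 within Col, 0.78 within CCA1-34 and 0.91 without the 2 arrays farthest from the COR15A median. RD29A and RD29B had an r of 0.73 and a rho of 0.52, with 0.68 within Col and 0.85 within CCA1-34, and r was 0.28 without the 2 arrays farthest from the RD29A median. COR47 and ERD10 had an r of 0.50 and a rho of 0.74, with -0.07 within Col and 0.81 within CCA1-34.

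CBF2 and COR15A had an r of -0.70 and a rho of -0.71, and CBF2 and COR15B an r of -0.77 and a rho of -0.75. Within CCA1-34 these were -0.14 and -0.41, within Col -0.74 and -0.77, and without the 2 arrays farthest from the CBF2 median -0.51 and -0.53. CBF2 was not shown to be above background, and the part of noise in these correlations was not tested. RD29A was most like ERD10 among the 10 genes, with an r of 0.88 and a rho of 0.85, and 0.56 without the 2 farthest arrays. These correlations describe 12 arrays that share age, line and time of day.

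**Figure D5:**
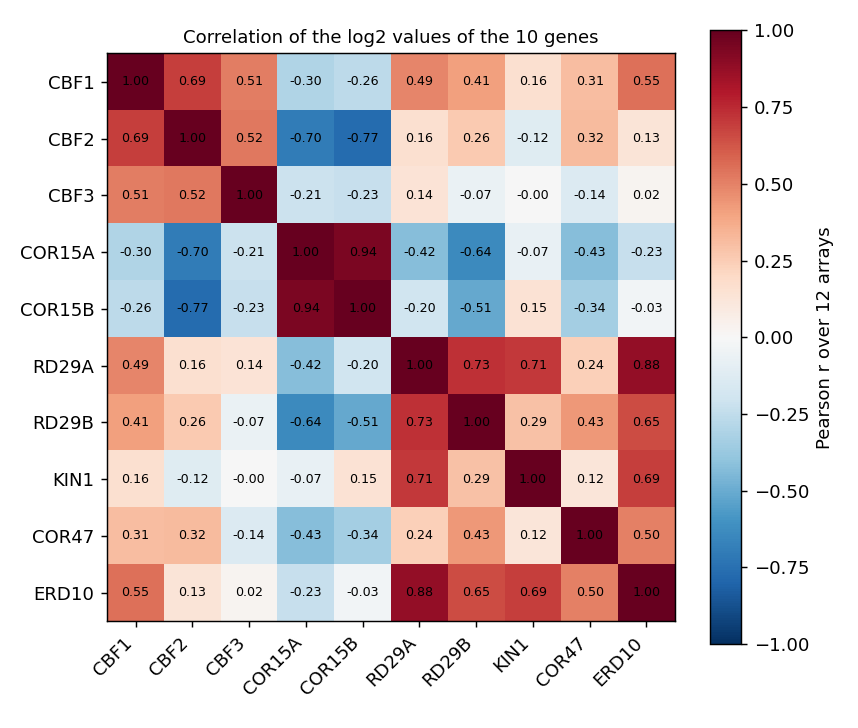
Pearson correlation of the log2 values of each pair of the 10 genes over the 12 arrays, coloured from blue (-1) to red (1). COR15A and COR15B form a pair at 0.94, RD29A and ERD10 one at 0.88, and CBF2 has -0.70 with COR15A and -0.77 with COR15B.

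Among 10936 other probe sets with 1 locus and a mean above the median, those most like the mean of the 3 CBF genes over 12 arrays were AT2G39750 (r 0.92), CAS1 (0.85), A/N-InvD (0.85), AT5G22760 (0.84) and ARAD1 (0.84). For the mean of the other 7 genes they were AT5G64220 (0.91), AT1G52000 (0.90), AT1G14200 (0.89), AT4G32270 (0.88) and AS1 (0.87). Both means used values centred but not scaled, so genes with a wider spread weighed more. The CBF signals were not shown to be above background. Each list holds the highest of 10936 correlations over 12 arrays, and how high r becomes through such a choice alone was not tested. COR15A and RD29A were added as single profiles after the values had been seen. RD29A was closest to AFP1 (0.96), a binding partner of the abscisic acid factor ABI5, then to ACX1 (0.95), AFP3 (0.93), PPC1 (0.93) and AT3G62580 (0.93). COR15A was closest to NPY3 (0.91), Nek7 (0.91), AT3G13510 (0.91), MBF1B (0.89) and NCED4 (0.88).

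Upstream of the CBF genes, 22 of 24 listed regulators were measured by a probe set with 1 locus. PIF7 and PRR9, both known repressors of CBF expression, were not among these and are not analysed here. In the comparison of lines over both times 1 of the 22 rose, which was CCA1 itself, by 5.34 (SE 0.55, adjusted p 0.00798 in limma), and 0 fell. In each of the other 7 comparisons 0 of 22 passed, though CCA1 in the late comparison of lines, at 6.12 with an adjusted p of 0.0588 in limma, had 0.0360 with the replicate block. LHY, the partner of CCA1, had a line difference of -1.45 (SE 0.63, adjusted p 0.913 in limma). It measured 6.33 on CCA1-34 early at 6 days and 3.25 to 3.70 on the other CCA1-34 arrays. PRR7, a repressor of CCA1, LHY and the CBF genes, had a line difference of 1.39 (SE 0.37, adjusted p 0.533 in limma). In Col, PRR7 measured 5.99, 4.62 and 6.02 early against 2.74, 3.19 and 4.18 late, a difference of 2.17 (SE 0.53, adjusted p 0.649 in limma). Every early Col array was above every late one, as in 5.14% of all probe sets. ICE1, an activator of CBF3, had a line difference of 0.14, CAMTA3, which binds the CBF2 promoter, -0.08, MYB15, a repressor, 0.05, and PRR5 -0.52.

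Of the other cold-induced and DREB-type factors, 15 of 16 were measured, and 0 passed in any of the 8 comparisons. Their median line difference was 0.02 over both times and their median slope over age -0.02. CBF4, the family member induced by drought, stayed between 1.89 and 2.36 on all arrays. DREB2A, which acts in drought and heat, had a line difference of 0.27, ZAT12 of -0.34 and RAV1 of 0.78.

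Among the other cold-regulated effector genes, 26 of 29 were measured, and 0 passed. In the comparison of lines, 4 of 26 were higher in CCA1-34 at an unadjusted p below 0.05 and 0 lower, with 2.99% of all probe sets higher at that level. GOLS3, an enzyme of raffinose synthesis and CBF target, measured 3.14, 3.31 and 3.12 in Col early, 2.91, 2.74 and 2.87 in Col late, 3.91, 4.02 and 3.37 in CCA1-34 early and 3.37, 3.33 and 2.96 in CCA1-34 late. Its values were lowest in Col late and highest in CCA1-34 early, though the lowest CCA1-34 early value was 3.3699 and the highest CCA1-34 late value 3.3657. GOLS3 was below the array median on every array, at a level not shown to be above background. The line difference was 0.48 (SE 0.12, adjusted p 0.483 in limma), and the time difference over both lines was 0.45 (SE 0.12, adjusted p 0.865).

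COR27 and COR28, cold-induced genes that are under clock control and act back on it, were high in Col on 1 array, late at 7 days. COR27 measured 2.20, 2.83 and 5.40 in Col late and 4.39, 4.79 and 5.01 in CCA1-34 late. In the early groups it measured 2.19, 2.26 and 2.37 in Col and 2.16, 1.95 and 5.12 in CCA1-34. COR28 was 5.26 in Col late at 7 days and at most 2.70 on the other 11 arrays. COR27 had a time difference of -1.43 over both lines (SE 0.63) and a slope over age of 0.87 (SE 0.28), with adjusted p of 0.865 and 0.165 in limma.

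With age, 7 of the 26 effector genes were higher and 3 lower at an unadjusted p below 0.05, against 9.21% and 7.24% of all probe sets. LTI30, a cold-induced dehydrin, had a slope of -0.49 per day (SE 0.12, adjusted p 0.0897 in limma). COR413IM1, a membrane protein of the chloroplast envelope, had one of 0.44 (SE 0.17, adjusted p 0.235) and measured 5.99, 6.45 and 7.95 in Col early and 6.15, 5.63 and 7.07 in Col late, with the 7-day arrays the highest of each Col group. In CCA1-34 it measured 6.40, 7.02 and 6.67 early and 6.11, 6.96 and 6.51 late, highest at 6 days. GRP7, a clock-regulated RNA-binding protein, had a slope of 0.39 (SE 0.15, adjusted p 0.225), and LEA14 one of -0.04.

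Of the abscisic acid genes, 13 of 14 were measured, and 0 passed. In the comparison of lines 3 of 13 were higher in CCA1-34 at an unadjusted p below 0.05, against 2.99% of all probe sets. RAB18, a dehydrin that answers to abscisic acid, measured 7.41, 7.55 and 6.44 in Col early, 7.05, 7.80 and 6.90 in Col late, 7.92, 7.71 and 8.13 in CCA1-34 early and 7.86, 7.87 and 8.34 in CCA1-34 late. Its line difference was 0.78 (SE 0.22, adjusted p 0.556 in limma). NCED3, which catalyses the limiting step of abscisic acid synthesis, had a line difference of 0.66 (SE 0.26, adjusted p 0.881) and a slope over age of -0.35 (SE 0.12, adjusted p 0.201). With age 3 of the 13 were lower at an unadjusted p below 0.05 and 0 higher, against 7.24% and 9.21% of all probe sets. RD20 had a slope of -0.87 (SE 0.43) and RD22 one of 0.09.

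The touch and handling list had 3 of 12 genes higher with age and 3 of 12 higher in CCA1-34 at an unadjusted p below 0.05, against 9.21% and 2.99% of all probe sets, and 0 passed after adjustment. TCH4, a cell wall enzyme induced by touch and cold, had a line difference of 0.83 (SE 0.25, adjusted p 0.609 in limma) and a slope of 0.34 (SE 0.12, adjusted p 0.192). The mean of the touch list was 5.33 on Col early at 7 days, the array with the highest COR15A value, and 4.61 to 5.12 on the other arrays. Its part in the COR15A value was not tested. DIN6, the asparagine synthetase of the starvation list, had a line difference of 0.33 (SE 1.05).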

How the data were processed

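The deposited values are log2 expression per probe set, which the authors computed with RMA per the submitters' processing notes and file headers. Its version and settings are not stated in these sources. Precision is set by the number of arrays.

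After 64 array controls were removed from 22810 probe sets, differences were tested in limma 3.58.1 (R 4.3.3; lmFit and eBayes, two-sided). The fit took all 12 arrays as deposited, with 1 mean for each of 4 groups and 8 residual degrees of freedom. The 8 comparisons were early minus late in each line and over both, CCA1-34 minus Col at each time and over both, the interaction, and a slope over age with the group as a factor (7 degrees of freedom). Benjamini-Hochberg adjustment ran over 22746 probe sets, with a threshold of 0.05. The median standard error of a difference was 0.160. The fit was tested on simulated data. Tables used Python 3.11.15.

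Genes named were the 10 members, genes picked by name from each list, list members past the threshold, and the 5 probe sets most like each mean profile. Each list gene was read through a probe set with 1 locus, and symbols follow TAIR10.1. The members and lists were chosen with earlier results of these data known. Per the labels, arrays with the same replicate number shared a seedling age. The deviations of the 18 same-numbered array pairs correlated at -0.32 to 0.51. The closing section gives the replicate block, array weights, an intensity trend, centring, a filter on dim probe sets and arrays left out.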

Additional observations from a re-analysis of the deposited data

How the results depend on the processing

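None of the 10 genes passed with the replicate block, for which the 7 comparisons other than the slope were refitted, and of the named genes it changed the call of CCA1 alone, in the late comparison of lines; age is the block itself, so the slopes have no such fit. Of 198 recomputed counts of members past the threshold, 195 were 0. The others came from the slope over age with array weights (2, RD29A and RD29B) and without the 2 early arrays low in starvation genes (1, RD29A at -0.70), and from the slope in CCA1-34 with array weights (1, KIN1 at -0.73, adjusted p 0.0324 in limma). Leaving out 1 array at a time gave 0 members throughout. Of 39 differences under 686 alternatives, 4 changed sign: COR15A early minus late over both lines ranged from -1.48 to 0.0285 with 1 array left out, KIN1 in Col from -0.0527 to 0.21 per day (-0.0527 also without both early arrays), and COR15B in CCA1-34 from -0.13 to 0.19 per day. Causes were not tested.

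Counts over all probe sets moved more. For Col early minus late, 1 became 20 with array weights, 13 without both early arrays and 0 to 3 with 1 array left out; for CCA1-34, 0 became 0 to 1. The interaction gave 1 without both early arrays. CCA1-34 minus Col early gave 2 with an intensity trend, 2 without dim probe sets, 2 after centring, and 1 to 3 with 1 array left out. CCA1-34 minus Col late gave 6 with the replicate block, 22 from only the arrays compared, 6 with the trend, 120 with weights, 7 without dim probe sets, 30 without both early arrays and 1 to 12 with 1 array left out. Over both times, 5 became 16 with the replicate block, 26 with weights and 9 without dim probe sets, and early minus late over both lines 0 to 1 with 1 array left out. The slope over age, at 179, gave 107 with the trend, 1151 with weights and 0 to 427 with 1 array left out. The slope in Col, at 4, gave 0 with weights, 7 without dim probe sets, 1 without both early arrays and 0 to 123 with 1 array left out, and that in CCA1-34, at 0, gave 209 with weights, 6 without both early arrays and 0 to 1 with 1 array left out. For Col early minus late, with 3 arrays a group, the CBF differences of 0.37 to 0.51 (SE 0.10 to 0.32) did not pass. The CBF signals were not shown to be above background.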
